A study of Mus musculus with 33 samples.

Results

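Transcripts of the Rab small GTPases were followed in the right hippocampus of 33 male mice, 1 Affymetrix MOE430 2.0 array per animal. Members were the genes with a symbol made of Rab and a number, each read by its brightest probe set that names 1 gene, with a mean signal over 13. Of 59 such symbols on the array 54 met this rule. A filter on low signals then left 53 of them among the 12760 genes that were tested. The study asked what a human APP transgene changes in the hippocampus and what an agonist of the liver X receptors does there. Animals of all groups were on a mixed SJL × C57BL/6J background, were 20 weeks old and were perfused with saline 1 hour after the last dose. Wild-type littermates given vehicle made up 11 arrays. Heterozygous Tg2576 mice given vehicle, which express human APP carrying the Swedish mutation from a prion promoter, made up 11 more. The last 11 came from heterozygous Tg2576 mice given TO901317, a synthetic liver X receptor agonist, at 50 mg per kg per day by mouth, for 7 days by the series' design text and 5 days by the treatment protocol. Wild-type mice given TO901317 were not analysed here. Whole dissected hippocampus was used, so each value averages over all its cell types.

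Rab proteins are molecular switches of membrane traffic. Each cycles between a GDP-bound form held in the cytosol by GDP dissociation inhibitors and a GTP-bound form that sits on its own membrane by a prenyl anchor, where it recruits effectors such as tethers, motors and adaptors. Exchange factors switch Rabs on and GTPase-activating proteins switch them off. In neurons they steer synaptic vesicle release, receptor recycling at synapses, axonal transport and the endosomal and lysosomal routes along which APP and its cleavage products travel.

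All values are array signals that the authors had scaled to a common trimmed mean, and array medians ran from 19.4 to 28.9. Abca1, a liver X receptor target gene, was 0.61 higher on the log2 scale in treated than in vehicle Tg2576 mice (SE 0.08, limma adjusted p = 5.83e-05). Markers of the tissue were present: 6 of 6 genes of hippocampal neurons, 12 of 12 of the dentate gyrus and 8 of 8 of the CA fields passed the filter on low signals. So did 10 of 10 markers of meninges and fibroblasts and 11 of 11 of thalamus and striatum, so passing does not tell regions apart. Vehicle Tg2576 replicates 3 and 4 stood out in the Gapdh control probe sets, with a log2 ratio of the 3' over the 5' end of 0.11 and 0.08, against at most -0.08 on the other 31 arrays. Within each group the animals numbered 1 to 5 also stood apart from those numbered 6 to 11. With group means in the model, 2395 of 12760 genes (18.8%) differed between these 2 sets at a limma adjusted p under 0.05. The labels name no batch, and this split was looked at after its effect had been seen. Rab differences with an unadjusted p under 0.05 are therefore also given within each set. With 11 arrays in each group, their number limits the precision.

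Few Rab transcripts differed between the groups. Between vehicle Tg2576 and wild type none of 53 Rab genes passed at a limma adjusted p under 0.05, where 0.235% of all genes tested did, and 7 of 53 (13.2%) had an unadjusted p under 0.05, against 11.9% of all genes. Of these 7, 4 were higher in value, against a background of 6.38%, and 3 lower, against 5.53%. Between treated and vehicle Tg2576, 1 of 53 passed (1.89%), Rab27b, which was lower, against 0.282% of all genes, or 0.165% counting lower genes alone. Here 3 had an unadjusted p under 0.05 (5.66%), against 11.7%, with 0 of them higher in value, against 5.09%, and 3 lower, against 6.64%. Between treated Tg2576 and wild type none passed, against 0.361% of all genes, and 4 had an unadjusted p under 0.05 (7.55%), against 9.44%, with 2 higher in value, against 4.12%, and 2 lower, against 5.31%. No Rab gene separated the groups of any comparison without overlap, which 6, 2 and 4 of the 12760 genes did, or 0.047%, 0.0157% and 0.0313%. In whole tissue, fewer cells of a type and less RNA per cell cannot be told apart, here and in every result that follows.

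The family's median log2 differences were small. The median over the 53 genes was 0.024 between vehicle Tg2576 and wild type, -0.0039 between treated and vehicle Tg2576 and 0.016 between treated Tg2576 and wild type. Over all genes tested the medians were 0.0066, -0.010 and -0.0025. In the first comparison 35 of 53 Rab genes (66%) lay above 0, against 53% of all genes, in the second 24 (45.3% against 45.8%) and in the third 32 (60.4% against 48.7%). The 95% interval of the difference lay wholly within 0.25 of 0 for 39, 42 and 42 of the 53 genes in the 3 comparisons, so that a larger difference lies outside the interval for those. The spread between animals was also small: the median residual SD was 0.15 on the log2 scale for the Rab genes and 0.18 for all genes tested. These sets were not matched for signal, and the part of brightness in this spread was not tested. Among the brightest probe sets the residual SD was lowest for Rab18, which acts at lipid droplets and the endoplasmic reticulum (0.068). It was highest for Rab3b, a vesicle Rab (0.42). A dimmer Rab18 probe set varied more, with linear means of 202 ± 33.1, 181 ± 45.5 and 221 ± 28.3 in wild type, vehicle and treated Tg2576 (SD). Among other small GTPases, 0 of 14 Arf and Arl genes and 0 of 21 Ras genes tested passed in each comparison.

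**Figure D1:**
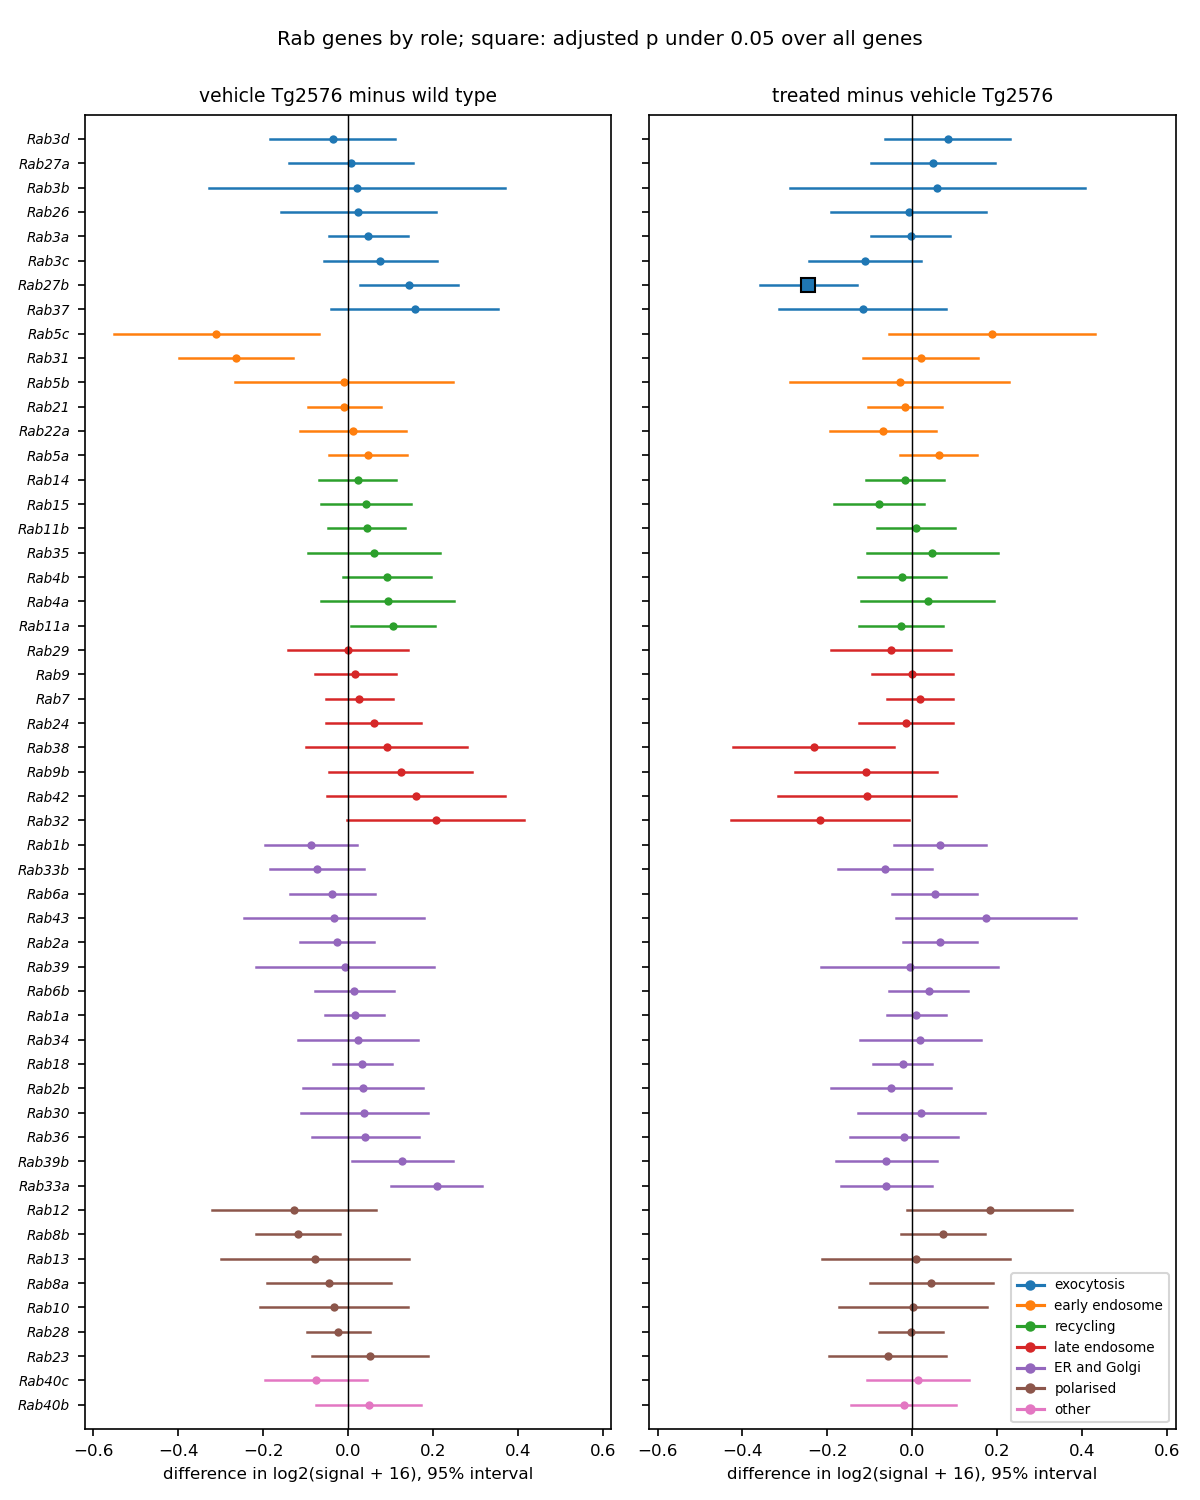
Log2 differences of the 53 tested Rab genes, grouped by role, with 95% intervals from the limma fit, for vehicle Tg2576 minus wild type (left) and treated minus vehicle Tg2576 (right). Only Rab27b, drawn as a square at -0.25 on the right, passed an adjusted p of 0.05 over all genes tested.

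Rab27b was the Rab transcript that fell with TO901317. Its protein docks secretory vesicles and multivesicular endosomes at the plasma membrane and takes part in exosome release. Wild-type signals ran from 173 over a median of 201 to 235, vehicle Tg2576 signals from 202 over 219 to 273, and treated Tg2576 signals from 163 over 188 to 229. Treated animals were the lowest group and vehicle Tg2576 animals the highest, with overlap: 10 of 11 treated animals lay below the vehicle Tg2576 median and 7 below its lowest animal. Group means were 206 ± 17.8 in wild type, 229.97 ± 23.9 in vehicle Tg2576 and 191 ± 19.0 in treated Tg2576 (SD, n = 11 each). The log2 difference between treated and vehicle Tg2576 was -0.25 (SE 0.06, 95% interval -0.36 to -0.13, limma adjusted p = 0.0433). Vehicle Tg2576 was 0.14 above wild type (SE 0.06, unadjusted p = 0.0154, adjusted p = 0.291), and 11 of 11 of its animals lay above the wild-type median. Treated Tg2576 mice were at -0.10 against wild type (SE 0.06, adjusted p = 0.602). The first and second of these differences use the same vehicle Tg2576 arrays, so their opposite signs are not independent.

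The Rab27b call depended on single animals. Vehicle Tg2576 replicates 3, 4 and 5 read 252, 273 and 266, above each of the other 30 arrays, whose highest was 235. Without these 3 arrays the treated-to-vehicle difference was -0.17 (adjusted p = 0.17) and the difference between vehicle Tg2576 and wild type was 0.07 (adjusted p = 0.648). Without replicates 3 and 4, the arrays with the high Gapdh ratio, the treated-to-vehicle difference was -0.20 (adjusted p = 0.122). Within the animals numbered 1 to 5 it was -0.31 (adjusted p = 0.103) and within those numbered 6 to 11 it was -0.19 (adjusted p = 0.355), and with the 2 sets as a block it was -0.25 (adjusted p = 0.0233). The difference between vehicle Tg2576 and wild type was 0.24 and 0.06 within these sets. The direction of both differences was the same within both sets, while the treated-to-vehicle call held with the block and within neither set alone. Leaving out 1 array at a time, it held without vehicle Tg2576 replicate 1, 6, 7, 8 or 11 or treated replicate 4 or 11, and was lost without any one of the other 15 arrays (values from -0.27 to -0.22, adjusted p from 0.0147 to 0.0942). The other 3 probe sets of Rab27b were dimmer, with mean signals of 117, 26.4 and 21.5, and differed by -0.41, -0.16 and -0.21 between treated and vehicle Tg2576 and by 0.35, 0.09 and 0.29 between vehicle Tg2576 and wild type. All 4 probe sets had the same sign in each of these 2 comparisons, and in a fit of all probe sets the adjusted p of the treated-to-vehicle difference lay between 0.0597 and 0.628.

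**Figure D2:**
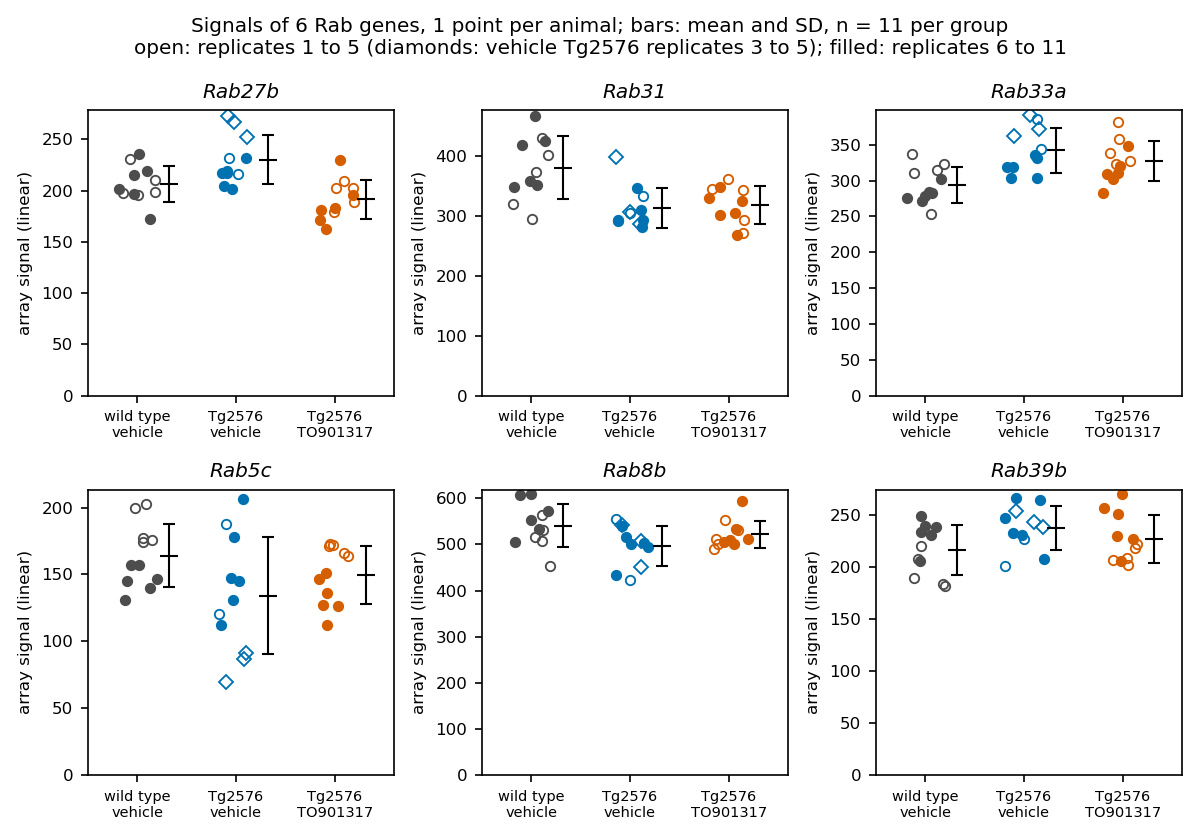
Linear array signals of Rab27b, Rab31, Rab33a, Rab5c, Rab8b and Rab39b in each animal, with the mean and SD of each group (n = 11); open points are replicates 1 to 5, diamonds vehicle Tg2576 replicates 3 to 5, filled points replicates 6 to 11. The diamonds are the highest points for Rab27b and the lowest for Rab5c.

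Among the other vesicle Rabs, which act in regulated release, none passed in any comparison. Rab3a, the main Rab of synaptic vesicles, had group means of 1838 ± 145 in wild type, 1901 ± 144 in vehicle Tg2576 and 1896 ± 136 in treated Tg2576 (SD, n = 11 each). Vehicle Tg2576 and wild type differed by 0.05 on the log2 scale, and treated and vehicle Tg2576 by -0.0039 (SE 0.05 each), less than the SD between animals. Its relatives Rab3b, Rab3c and Rab3d differed by 0.02, 0.08 and -0.04 in the first comparison and by 0.06, -0.11 and 0.08 in the second. Rab27a, the close relative of Rab27b that acts in melanosome and granule transport, differed by 0.0065 and 0.05. Rab26, which is found on synaptic vesicles, differed by 0.02 and -0.0081, and Rab37, a secretory granule Rab with a mean signal of 16.8, by 0.16 and -0.12. The 8 genes of this role had a median log2 difference of 0.036 between vehicle Tg2576 and wild type, with 7 above 0. Between treated and vehicle Tg2576 the median was -0.0060, with 3 above 0. The shares above 0 in these 2 comparisons were 66% and 45.3% of all Rab genes tested, and 53% and 45.8% of all genes.

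Early endosome Rabs held the lowest values of the comparison between vehicle Tg2576 and wild type. Rab31, also called Rab22b, works between the trans-Golgi network and endosomes and is known from glia. Wild-type signals ran from 294 over a median of 374 to 466, vehicle Tg2576 signals from 282 over 304 to 398 and treated Tg2576 signals from 268 over 326 to 362. Both Tg2576 groups lay low with overlap, since 10 of 11 vehicle and 11 of 11 treated Tg2576 animals were below the wild-type median. Group means were 381 ± 52.4, 313 ± 34.1 and 318 ± 31.7 (SD, n = 11 each). The log2 difference was -0.26 between vehicle Tg2576 and wild type (SE 0.07, 95% interval -0.40 to -0.13, unadjusted p = 0.000328, limma adjusted p = 0.0756) and -0.24 between treated Tg2576 and wild type (SE 0.07, adjusted p = 0.101). Neither passed. Treated and vehicle Tg2576 differed by 0.02 (adjusted p = 0.943). Within the animals numbered 1 to 5 the first difference was -0.15 (adjusted p = 0.621), within those numbered 6 to 11 it was -0.36 (adjusted p = 0.0511), and with the 2 sets as a block it was -0.26 (adjusted p = 0.0558). It passed when wild-type replicate 4, wild-type replicate 5 or vehicle Tg2576 replicate 5 was left out, at values of -0.29, -0.30 and -0.30, and the difference between treated Tg2576 and wild type passed without wild-type replicate 5, at -0.28 (adjusted p = 0.0381). The latter was -0.16 within the animals numbered 1 to 5 and -0.31 within those numbered 6 to 11. A second probe set of Rab31, with a mean signal of 49.9, differed by -0.11.

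Marker lists of several cell types and regions also had median differences away from 0 between vehicle Tg2576 and wild type, in both directions. The largest was that of meninges and fibroblasts, at 0.49 over 10 markers, with 10 above 0, 8 at an unadjusted p under 0.05 and 0 past the adjusted threshold. Thalamus and striatum stood at 0.14 over 11 markers. Below 0 lay the dentate gyrus at -0.20 over 12 markers, of which Tdo2 fell, oligodendrocytes at -0.19 over 11 markers, of which 0 passed, and astrocytes at -0.15 over 10 markers, of which Slc4a4 fell. The summed signal of the 10 astrocyte markers ran from 10486 over a median of 12511 to 14042 in wild type, from 10389 over 11018 to 12141 in vehicle Tg2576 and from 11262 over 11660 to 13818 in treated Tg2576. That of the 11 oligodendrocyte markers had medians of 11972, 10562 and 11566, and that of the 10 meningeal markers 4547, 5375 and 5140.

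Medians of several of these lists are given beside Rab31 for the other comparisons. Between treated Tg2576 and wild type Rab31 was at -0.24. There the medians were -0.06 for astrocytes, -0.05 for oligodendrocytes, -0.13 for the dentate gyrus and 0.15 for meninges and fibroblasts. These medians kept the signs they had between vehicle Tg2576 and wild type, at smaller sizes. Those of CA fields and microglia also kept their sign. Other lists changed sign from vehicle to treated Tg2576, each against wild type. They were thalamus and striatum (0.14 and -0.01), endothelium (-0.07 and 0.12), choroid plexus (-0.03 and 0.13) and hippocampal neurons (-0.01 and 0.05). Between treated and vehicle Tg2576 Rab31 was at 0.02. There astrocytes, oligodendrocytes, the dentate gyrus and meninges and fibroblasts had medians of 0.11, 0.12, 0.02 and -0.19. With scores of the choroid plexus, dentate gyrus, oligodendrocyte and astrocyte markers as covariates, the Rab31 difference between vehicle Tg2576 and wild type was -0.03 (limma adjusted p = 0.941) and that between treated Tg2576 and wild type -0.09 (adjusted p = 0.741). These scores themselves differ between the groups, with means of 0.13 in wild type and -0.09 in vehicle Tg2576 for the dentate gyrus and of 0.08 and -0.06 for astrocytes. The same fit lowered the number of genes called between vehicle Tg2576 and wild type from 30 to 2, so it takes up part of the group difference in general. The part of tissue makeup in the Rab31 values cannot be told apart from genotype by it.

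Rab5c, which with Rab5a and Rab5b drives fusion of early endosomes, differed from wild type mostly in 3 vehicle Tg2576 animals. Wild-type signals ran from 131 over a median of 157 to 203, vehicle Tg2576 signals from 69.4 over 131 to 206 and treated Tg2576 signals from 112 over 151 to 172. Vehicle Tg2576 held both the lowest and the highest array of the 33. Its log2 difference from wild type was -0.31 (SE 0.12, unadjusted p = 0.0133, limma adjusted p = 0.273). Vehicle Tg2576 replicates 3, 4 and 5, the animals highest in Rab27b, read 69.4, 91.2 and 86.9 for Rab5c, below each of the other 30 arrays, whose lowest was 112. Without them the difference was -0.10 (adjusted p = 0.729), and within the animals numbered 6 to 11 it was 0.043 (adjusted p = 0.904) against -0.73 (adjusted p = 0.0846) within those numbered 1 to 5. Rab12, which acts in receptor degradation and is listed here under polarised exocytosis, neurites and cilia, read 193, 182 and 192 in the same 3 animals. Elsewhere it read at least 265. Rab33a read 372, 391 and 362 in these 3 animals, against 253 to 386 elsewhere. The Gapdh ratio of replicate 5, at -0.08, was the highest after those of replicates 3 and 4. A fit with this ratio as covariate was run for the Rab differences with an unadjusted p under 0.05. In that fit Rab5c stayed lower and Rab33a higher in vehicle Tg2576 than in wild type, and neither passed. The result of the fit for Rab27b is given below. Apart from that fit, the part of RNA quality in these values was not tested.

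None of the remaining early endosome Rabs passed. Rab5a, the best studied early endosome Rab, had group means of 952 ± 76.8, 983 ± 64.4 and 1027 ± 65.7 in wild type, vehicle Tg2576 and treated Tg2576 (SD, n = 11 each). Its log2 difference was 0.05 between vehicle Tg2576 and wild type, 0.06 between treated and vehicle Tg2576 and 0.11 between treated Tg2576 and wild type (SE 0.04 each). The last had an unadjusted p of 0.0198 and an adjusted p of 0.399, and 10 of 11 treated animals lay above the wild-type median. Its value was 0.07 within the animals numbered 1 to 5 and 0.14 within those numbered 6 to 11. Rab5b, with a mean signal of 33.4, was at -0.0094 and -0.03 in the first 2 comparisons. Rab21, an integrin-trafficking Rab, was at -0.0081 and -0.02, and Rab22a at 0.01 and -0.07. For Rab5c the treated-to-vehicle difference of 0.19, the largest of this role, had an adjusted p of 0.58.

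Recycling endosome Rabs, which return receptors to the surface, lay slightly above 0 in vehicle Tg2576 against wild type. By their brightest probe sets all 7 had a log2 difference above 0, with a median of 0.062 and a range of 0.02 to 0.11. None passed. Dimmer probe sets of Rab14 and Rab11b ran both ways. In wild type and vehicle Tg2576, means were 721 and 767 for a Rab14 probe set and 449 and 420 for another. For Rab11b they were 57.5 and 53.4, and 19.5 and 20.6. Of all Rab genes tested 66% lay above 0 in this comparison, and of all genes 53%. Rab11a, which carries recycling AMPA receptors into spines, had signals from 295 over a median of 324 to 381 in wild type, from 302 over 358 to 398 in vehicle Tg2576 and from 304 over 354 to 386 in treated Tg2576. The vehicle Tg2576 animals overlapped the wild-type range but 10 of 11 lay above its median. The difference was 0.11 (SE 0.05, unadjusted p = 0.0359, limma adjusted p = 0.371). Within the animals numbered 1 to 5 and 6 to 11 it was 0.14 and 0.08, and it was 0.06 without vehicle Tg2576 replicates 3, 4 and 5 (adjusted p = 0.683). Rab4a and Rab4b, Rabs of fast recycling, both differed by 0.09 (adjusted p = 0.692 and 0.493). Rab11b, Rab14, Rab15 and Rab35 differed by 0.04, 0.02, 0.04 and 0.06. Between treated and vehicle Tg2576 the same 7 genes had a median of -0.017, with 3 above 0, and the smallest p was that of Rab15 at -0.08 (adjusted p = 0.612). Between treated Tg2576 and wild type it was that of Rab4a at 0.13 (adjusted p = 0.638). The second probe set of Rab11a was as bright as the first and differed from it in the treated-to-vehicle comparison, at -0.17 (unadjusted p = 0.0171) against -0.03.

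Late endosome and lysosome Rabs also lay on one side in the first comparison. All 8 tested members, read by their brightest probe sets, had a log2 difference above 0, with a median of 0.076, and none passed. In this comparison 66% of all Rab genes tested and 53% of all genes lay above 0. The smallest of the values was 0.00017, for Rab29. Rab7, which directs late endosomes to lysosomes, had group means of 1790 ± 111, 1825 ± 124 and 1846 ± 75.7 (SD, n = 11 each) and differences of 0.03 and 0.02. Rab32 and Rab38, relatives that act on lysosome-related organelles, had the lowest values of this role between treated and vehicle Tg2576. Rab32 signals, which are close to the filter on low signals, ran from 11.1 over a median of 16.5 to 22.6 in wild type, from 11.6 over 21.95 to 35.4 in vehicle Tg2576 and from 8.93 over 16.3 to 22.8 in treated Tg2576. The vehicle Tg2576 group reached higher than both others, and 10 of 11 treated animals lay below its median. For Rab32, vehicle Tg2576 stood 0.21 above wild type (SE 0.10, unadjusted p = 0.052) and treated lay at -0.22 from vehicle Tg2576 (SE 0.10, unadjusted p = 0.0419, adjusted p = 0.405).

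Rab38 signals ran from 32.97 over a median of 42.1 to 69.6 in wild type, from 32.8 over 49.9 to 72.8 in vehicle Tg2576 and from 29.4 over 40.9 to 46.9 in treated Tg2576. Each treated animal lay below the vehicle Tg2576 median. The treated-to-vehicle difference was -0.23 (SE 0.09, unadjusted p = 0.0175, limma adjusted p = 0.306), while a second, dimmer probe set of Rab38 differed by -0.02. Without vehicle Tg2576 replicates 3, 4 and 5 the value was -0.33 for Rab38 (adjusted p = 0.119) and -0.31 for Rab32 (adjusted p = 0.19). Within the animals numbered 1 to 5 it was -0.16 and -0.05, and within those numbered 6 to 11 it was -0.30 and -0.36. Rab9 and Rab9b, which recycle receptors from late endosomes to the Golgi, differed by 0.02 and 0.12 in the first comparison. Rab24, Rab29 and Rab42 differed by 0.06, 0.00017 and 0.16. The mean signal of Rab42, 17.7, is close to the filter on low signals.

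Rab7b, a relative of Rab7, was the member just inside the signal limit of 13, at a mean of 13.2, and fell below the filter of the test. The next member inside was Rab39 at 14.99, and the first symbol outside was Rab44 at 8.82. Rab17, Rab20, Rab19 and Rab25 followed at 7.26, 4.09, 3.91 and 2.51. Rab17 and Rab25 are known from epithelia.

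Of the 15 Golgi and endoplasmic reticulum Rabs, Rab33a had the smallest p between vehicle Tg2576 and wild type. It is a Golgi Rab that moves vesicles into growing axons. Wild-type signals ran from 253 over a median of 285 to 338, vehicle Tg2576 signals from 303 over 335 to 391 and treated Tg2576 signals from 283 over 323 to 381. The vehicle Tg2576 animals were high: 11 of 11 lay above the wild-type median and 5 above its highest animal. Group means were 294 ± 25.4, 342 ± 31.5 and 327 ± 27.5 (SD, n = 11 each). The log2 difference was 0.21 (SE 0.05, 95% interval 0.10 to 0.32, unadjusted p = 0.000324, limma adjusted p = 0.0756), which did not pass. With the animals numbered 1 to 5 and 6 to 11 as a block the same difference passed (adjusted p = 0.011). Within the first set it was 0.26 (adjusted p = 0.149) and within the second 0.16 (adjusted p = 0.189). Without vehicle Tg2576 replicates 3, 4 and 5 it was 0.16 (adjusted p = 0.192). It also passed when wild-type replicate 5 was left out, at 0.23 (adjusted p = 0.0344). Treated Tg2576 lay 0.15 above wild type (SE 0.05, adjusted p = 0.292), with 0.16 and 0.14 within the animals numbered 1 to 5 and 6 to 11, and -0.06 from vehicle Tg2576 (adjusted p = 0.719). Rab33a had 1 probe set past the filter.

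The promoters of Rab31 and Rab33a are shown because these were the 2 Rab genes of smallest p between vehicle Tg2576 and wild type. Each is the 250 bases before the RefSeq gene start on the gene's own strand, in build GRCm38.p6, in lower case with any GC box (GGGCGG) in capitals.
Rab31, chr17:65772753-65773002, minus strand: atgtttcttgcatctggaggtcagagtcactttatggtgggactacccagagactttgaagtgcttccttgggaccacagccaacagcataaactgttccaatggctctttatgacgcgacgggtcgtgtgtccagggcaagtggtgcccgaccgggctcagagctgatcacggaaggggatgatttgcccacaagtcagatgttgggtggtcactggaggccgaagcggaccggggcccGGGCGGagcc
Rab33a, chrX:48519035-48519284, plus strand: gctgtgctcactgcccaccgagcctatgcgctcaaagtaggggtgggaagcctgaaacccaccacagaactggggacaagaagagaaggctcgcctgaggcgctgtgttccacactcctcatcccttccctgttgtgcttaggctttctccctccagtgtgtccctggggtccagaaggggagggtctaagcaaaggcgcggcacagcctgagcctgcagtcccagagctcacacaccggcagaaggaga

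The Rab31 window holds 1 GC box close to the start, and the Rab33a window holds none. RefSeq promoters were found for 44 of the 54 members, with 56 windows. Rab27b and Rab38 had no window, so the matches that follow do not cover them. On either strand, GGGCGG was in 69.6% of the Rab windows and in 32.7% of 32841 windows of all genes. The E box CACGTG was in 7.14% against 6.02%, and TATAAA was in 7.14% against 12.4%. The idealised DR4 element, the direct repeat that liver X receptors bind, was in 0 Rab windows and in 0.0152% of all windows. The median ratio of observed to expected CpG was 0.742 in Rab windows and 0.374 in all, and the median GC content was 60.6% and 52.4%. The windows of all genes came from 27018 genes without the signal limit set for the Rab genes. Some Rab genes gave several windows, and a few of these overlap. Whether the differences belong to the Rab family was not tested. A match is a description of the letters in these windows and no binding site.

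None of the other Golgi and endoplasmic reticulum Rabs passed. Rab39b, a neuronal Rab of the Golgi and recycling route, had signals from 182 over a median of 220.0 to 249 in wild type, from 201 over 238 to 266 in vehicle Tg2576 and from 202 over 222 to 270 in treated Tg2576. In vehicle Tg2576 9 of 11 animals lay above the wild-type median, and the difference was 0.13 (SE 0.06, unadjusted p = 0.0356, limma adjusted p = 0.371). Within the animals numbered 1 to 5 it was 0.23 and within those numbered 6 to 11 it was 0.05. Between vehicle Tg2576 and wild type the differences were 0.02 for Rab1a and -0.04 for Rab6a, which carry cargo from the endoplasmic reticulum to the Golgi and within it, and the values were 0.0094 and 0.05 between treated and vehicle Tg2576. Group means were 1751 ± 85.0, 1771 ± 93.6 and 1782 ± 77.2 for Rab1a and 2375 ± 149, 2324 ± 253 and 2402 ± 142 for Rab6a (SD, n = 11 each). Rab1b, Rab2a, Rab2b, Rab6b and Rab18 differed by -0.09, -0.03, 0.04, 0.02 and 0.03 in the first comparison. Rab33b, which works in Golgi traffic and autophagy, was lower in treated Tg2576 than in wild type by value only, at -0.14 (SE 0.05, unadjusted p = 0.016, adjusted p = 0.376), with 9 of 11 treated animals below the wild-type median. Its value was -0.22 within the animals numbered 1 to 5 and -0.06 within those numbered 6 to 11. Rab43 had the smallest p of this role between treated and vehicle Tg2576, at 0.17 (adjusted p = 0.545), and its 2 dimmer probe sets differed by -0.06 and -0.0090.

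Rabs of polarised exocytosis, neurites and cilia lay mostly below 0 in vehicle Tg2576 against wild type, with 1 of 7 above 0 and a median of -0.044. The shares above 0 were 66% of all Rab genes tested and 53% of all genes. Rab8b, which works in exocytosis and ciliary traffic, had signals from 453 over a median of 534 to 610 in wild type, from 424 over 503 to 554 in vehicle Tg2576 and from 491 over 511 to 594 in treated Tg2576. In vehicle Tg2576 8 of 11 animals lay below the wild-type median and 3 below its lowest animal. The difference was -0.12 (SE 0.05, unadjusted p = 0.0203, limma adjusted p = 0.318), and -0.05 and -0.17 within the animals numbered 1 to 5 and 6 to 11. Rab10, which acts in axonal membrane addition, had group means of 1150 ± 179, 1121 ± 163 and 1121 ± 152 (SD, n = 11 each) and differences of -0.03 and 0.0012. Dimmer Rab10 probe sets had means of 553, 548 and 559, and of 200, 190 and 219, in wild type, vehicle and treated Tg2576. Rab8a, Rab13, Rab23 and Rab28 differed by -0.04, -0.08, 0.05 and -0.02 in the first comparison. Rab12, described above for 3 low vehicle Tg2576 animals, had the lowest value of this role in the first comparison, at -0.13 (adjusted p = 0.65). Between treated and vehicle Tg2576 it differed by 0.18 (adjusted p = 0.465). The SOCS box Rabs Rab40b and Rab40c, substrate receptors of ubiquitin ligases, differed by 0.05 and -0.08 in the first comparison and by -0.02 and 0.01 in the second.

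Several probe sets can read 1 gene at different transcript ends. For 32 of the 53 genes more than 1 probe set passed the filter, with 60 probe sets besides the brightest. In 14 genes at least 1 of them had the opposite sign to the brightest between vehicle Tg2576 and wild type, in 14 between treated and vehicle Tg2576, and in 24 between treated Tg2576 and wild type. Rab27b was among the genes whose probe sets shared their sign in the first 2 comparisons.

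**Figure D3:**
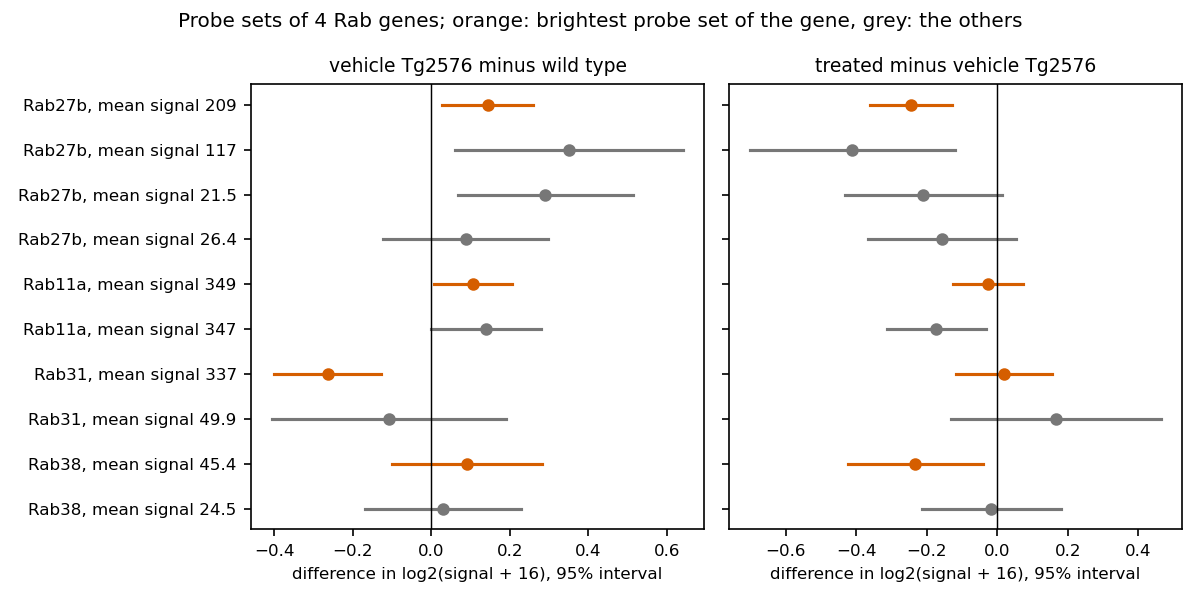
Log2 differences with 95% intervals for each probe set of Rab27b, Rab11a, Rab31 and Rab38, labelled by mean signal, for vehicle Tg2576 minus wild type (left) and treated minus vehicle Tg2576 (right). The 4 Rab27b probe sets lie on one side of 0 in both panels, while the dimmer Rab38 probe set lies near 0.

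Genes that regulate or read Rabs gave no calls in the 3 comparisons. Of the GDP dissociation inhibitors and prenylation genes 0 of 7 tested passed, of the exchange factors 0 of 28, of the GTPase-activating proteins 0 of 32 and of the effectors 0 of 44. At an unadjusted p under 0.05 there were 1, 3, 4 and 5 of them between vehicle Tg2576 and wild type, 0, 4, 5 and 5 between treated and vehicle Tg2576 and 1, 3, 4 and 7 between treated Tg2576 and wild type. Over all genes tested the shares at this p were 11.9%, 11.7% and 9.44%, and those past the adjusted threshold 0.235%, 0.282% and 0.361%, so that counts of this size are near the background. Between vehicle Tg2576 and wild type the genes of smallest p were Chml, an escort protein for Rab prenylation, at 0.23, Denn2b, an exchange factor, at -0.29, Tbc1d13, a GTPase-activating protein, at -0.23 and Plekhm2, a lysosomal adaptor, at -0.23. Between treated and vehicle Tg2576 they were Rabggtb, a subunit of the Rab prenyl transferase, at -0.08, Sbf1 at 0.20, Tbc1d5, which acts on Rab7, at 0.13 and Rundc1 at -0.30. Between treated Tg2576 and wild type they were Rabac1, a prenylated Rab acceptor, at 0.10, Sbf1 at 0.19, Tbc1d1, which acts on Rabs of glucose transporter traffic, at 0.45 and Rab11fip5, a Rab11 effector, at 0.21. The value for Tbc1d1 had the smallest adjusted p of these, 0.0654.

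Replicate numbers went with differences across the array, Rab genes included and at a similar rate. Between the 15 animals numbered 1 to 5 and the 18 numbered 6 to 11, 12 of 53 Rab genes differed at a limma adjusted p under 0.05 (22.6%), against 18.8% of all genes tested. In the animals numbered 1 to 5, 7 were higher (13.2% of the Rab genes, 13.1% of all genes) and 5 lower (9.43%, 5.67%). Higher were Rab40c, Rab3a, Rab14, Rab33a, Rab4a, Rab6a and Rab26, and lower were Rab2b, Rab39b, Rab5b, Rab8a and Rab1a. These 12 are named because they passed, a choice made after their values were seen.

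Rab40c signals ran from 328 over a median of 389 to 431 in the animals numbered 1 to 5 and from 306 over 336 to 371 in those numbered 6 to 11. Of the first set, 11 of 15 lay above the highest animal of the second. The log2 difference was 0.21 (SE 0.03, limma adjusted p = 2.77e-05). Rab2b, a Golgi Rab, ran the other way, from 154 over 184 to 213 against 189 over 217 to 255, with 15 of 15 of the first set below the median of the second, and a difference of -0.22 (SE 0.04, adjusted p = 0.000364). Rab3a ran from 1823 over 1985 to 2154 against 1667 over 1786 to 2066, a difference of 0.14 (SE 0.03, adjusted p = 0.000429), with 15 of 15 above the other median. Rab14 ran from 1427 over 1593 to 1728 against 1331 over 1440 to 1576, a difference of 0.14 (SE 0.03, adjusted p = 0.00085). Rab33a, Rab4a, Rab6a and Rab26 differed by 0.15, 0.21, 0.13 and 0.22, and Rab39b, Rab5b, Rab8a and Rab1a by -0.15, -0.31, -0.15 and -0.07. Each group holds 5 animals of the first set and 6 of the second, so the split is balanced over genotype and treatment.

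**Figure D4:**
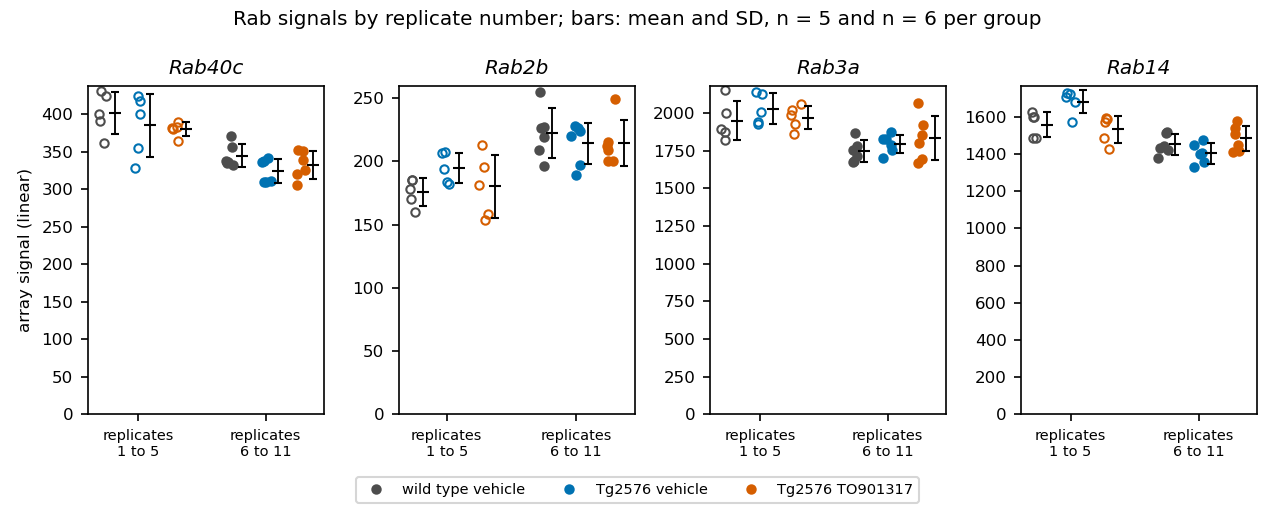
Linear array signals of Rab40c, Rab2b, Rab3a and Rab14 in each animal by replicate number (1 to 5 open, 6 to 11 filled) and group (colour), with the mean and SD of each set of 5 or 6 animals. Rab40c, Rab3a and Rab14 are higher and Rab2b lower in replicates 1 to 5 in each of the 3 groups.

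The next question was whether close paralogues vary together from animal to animal. For 18 pairs of paralogues the log2 signals were correlated over the 33 animals with group means removed, and p-values came from 100000 permutations of animals within groups, two-sided. The correlation was above 0 in 13 pairs, and none of the 18 passed for Pearson's r after Benjamini-Hochberg adjustment. The highest was that of the Golgi Rabs Rab6a and Rab6b, with r = 0.55 (permutation p = 0.00615, adjusted p = 0.111) and a Spearman coefficient of 0.59 (permutation p = 0.00114, adjusted p = 0.0205), and r = 0.45 without the 2 animals farthest from the median of Rab6a. The lowest was that of Rab2a and Rab2b, with r = -0.42 (permutation p = 0.0214, adjusted p = 0.192), a Spearman coefficient of -0.44 (permutation p = 0.015, adjusted p = 0.135) and r = -0.45 without the 2 farthest animals.

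Both relations were also computed within the replicate sets. Within the 15 animals numbered 1 to 5 the r of Rab6a and Rab6b was 0.72 and within the 18 numbered 6 to 11 it was -0.07. For Rab2a and Rab2b it was -0.18 and -0.05. With the group means removed within each set, r was 0.29 for the first pair and -0.12 for the second (permutation p adjusted over the 18 pairs 0.638 and 0.692). The sign was the same within both sets for 11 of the pairs, 7 above and 4 below 0, and differed for 7. Over all 1378 pairs of tested Rab genes the median r was 0.023, with 5th and 95th percentiles of -0.40 and 0.43. All these points share the same arrays, and the part of the arrays' common steps in them was not tested.

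**Figure D5:**
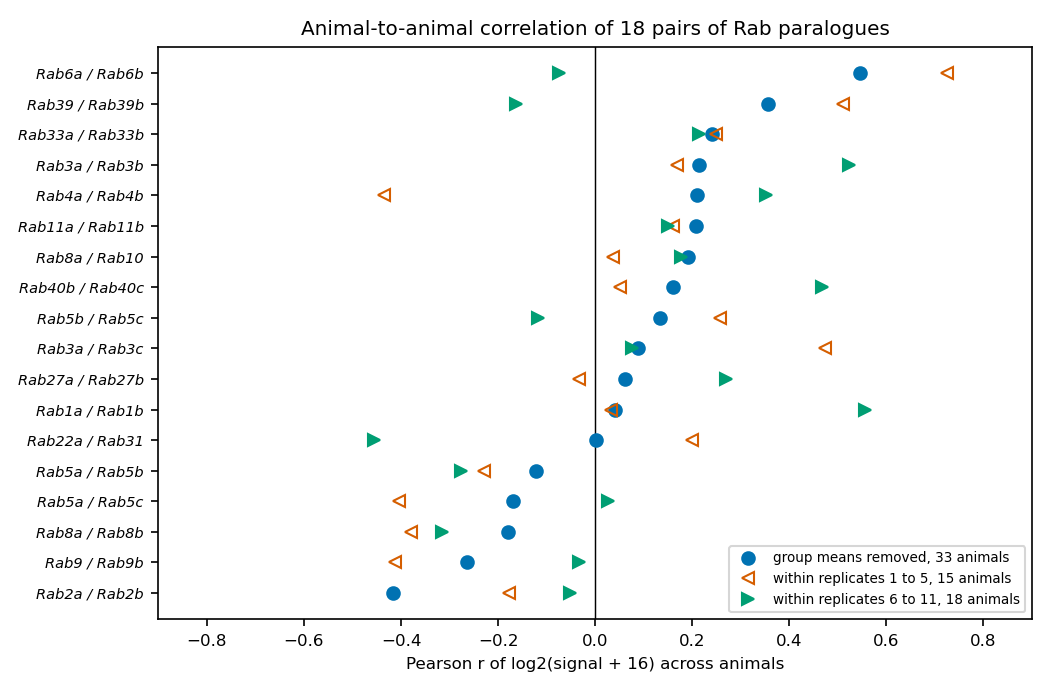
Pearson r of log2(signal + 16) across animals for 18 pairs of Rab paralogues, over all 33 animals with group means removed (circles) and within replicates 1 to 5 (n = 15, left triangles) and 6 to 11 (n = 18, right triangles). Rab6a and Rab6b lie at 0.55 over all animals, 0.72 within the first set and -0.07 within the second.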

How the data were processed

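Total RNA of 33 hippocampi was labelled and hybridised per the labels' protocols. The authors deposited MAS5 signals, an array intensity on a linear scale, per the submitters' processing notes. The MAS5 version is not given in the sources used here. Gene names came from GEO's platform annotation, and probe sets without exactly 1 gene were left out. Tests used log2(signal + 16), computed here from the deposited intensity, so differences of dim genes are understated. The dimmest 40 percent of probe sets by mean log2 value (up to a signal of 13.3) did not enter the test. limma 3.58.1 in R 4.3.3 fitted 1 mean per group to all arrays (eBayes with trend and robust), with Benjamini-Hochberg adjustment over 12760 genes and a threshold of 0.05. On simulated data with 200 changed genes of 12760, the treated-to-vehicle fit recovered 38.7% of changes of 0.25, 88.4% of 0.5 and 99.4% of 1, with 4.98% false calls. For vehicle Tg2576 against wild type it recovered 45.4%, 88.1% and 99.2%, with 5.2% false calls. These percentages describe the simulated data alone. Whether they carry over to the measured arrays, where 18.8% of genes differed between replicates 1 to 5 and 6 to 11, was not tested. Rab roles, partner lists and markers were chosen with earlier results of these data known. Named were Rab genes past the threshold, those with an unadjusted p under 0.05, the smallest p of each role and partner list, a fixed set of well-known Rabs, and members near the signal limit; other members are given by value without a test. Nothing in the labels says that animals of a group were processed apart. The main fit has no term for the split by replicate number, so its p-values rest on a spread between arrays that includes this split.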

Additional observations from a re-analysis of the deposited data

How the results depend on the processing

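The alternatives were run for the 14 Rab differences with an unadjusted p under 0.05. These kept their sign under each of up to 12 alternatives planned in advance (Rab32 and Rab38 lie below one of the filters), under each single array left out and under 4 chosen after seeing the data, except Rab5c, which was 0.043 within replicates 6 to 11. The Rab27b call between treated and vehicle Tg2576 held under 7 of these 16 alternatives and in 7 of 22 leave-one-out fits (adjusted p from 0.0147 to 0.0942, values from -0.27 to -0.22). No Rab gene passed there (a count of 0) with no filter on low signals (adjusted p = 0.0584), the mean of probe sets (0.0716), only the 2 groups compared (0.0863), plain eBayes (0.052), the Gapdh ratio as covariate (0.0631), vehicle Tg2576 replicates 3 and 4 or 3 to 5 left out, and within either set of replicate numbers.

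Leaving out 1 array gave 0 to 2 Rab genes and 23 to 57 of all genes between vehicle Tg2576 and wild type, 0 to 1 and 20 to 43 between treated and vehicle Tg2576, and 0 to 1 and 22 to 50 between treated Tg2576 and wild type. The counts over all genes, 30, 36 and 46 in these comparisons, became 22 and 26 in the last 2 with no filter, 29 in the last with plain eBayes, 59 and 65 in the first 2 with the Gapdh covariate, and 2 and 18 in the first and last with tissue marker scores. Replicates 1 to 5 and 6 to 11 as a block gave 67, 60 and 79, replicates 1 to 5 alone 2, 0 and 4, and replicates 6 to 11 alone 13 and 9 in the last 2. Dropping arrays also lowers the power of those fits.

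With each replicate number as a block, 51 genes and 1 Rab gene, Rab33a (0.21, adjusted p = 0.0358), passed between vehicle Tg2576 and wild type, and no other Rab call changed. The deviations of same-numbered animals correlated above 0.1 in 1, 6 and 3 of 11 pairs. Between treated and vehicle Tg2576 the correlations ran from 0.04 to 0.19. Differently numbered animals were not correlated beside them, so these values cannot decide whether same-numbered animals were paired. The block of replicates 1 to 5 and 6 to 11 also gave 1 Rab gene, Rab33a.

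Correlations changed sign for Rab1a and Rab1b (-0.27), Rab2a and Rab2b (0.033), Rab5a and Rab5b (0.032) and Rab22a and Rab31 (-0.065) under quantile normalization, for Rab3a and Rab3c (-0.049) and Rab5b and Rab5c (-0.21) without vehicle Tg2576 replicates 3 and 4, for Rab3a and Rab3c (-0.15), Rab5a and Rab5b (0.011) and Rab27a and Rab27b (-0.14) without the 2 farthest animals, and for Rab22a and Rab31 (-0.13) with the replicate sets removed. The causes were not tested.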
